A study of Mus musculus with 3 samples.

Results

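The mitochondrial genome of the mouse encodes 13 proteins, and 10 of them were followed here across the cell types of the embryonic kidney. These were mt-Nd1, mt-Nd2, mt-Nd3, mt-Nd4 and mt-Nd5 of complex I, mt-Cytb of complex III, mt-Co1, mt-Co2 and mt-Co3 of complex IV, and mt-Atp6 of complex V. They were chosen by symbol among the 32285 genes of the count tables, and all 10 were measured in every library. Single cells were profiled from whole kidneys at E15.5 (embryonic day) in 3 droplet libraries that count the 3′ ends of transcripts by unique molecular identifiers (UMIs). The Enl-WT library came from Enl+/+ Wt1 GFPCre/+ embryos, and the Enl-T1 library from Enl flox-T1/+ Wt1 GFPCre/+ embryos, in which Cre switches 1 allele of Enl (Mllt1, a chromatin reader) to the T1 insertion. The Enl-T1 TDI-11055 library (or TDI-11055 library) came from embryos of the Enl-T1 genotype whose mothers received TDI-11055, an inhibitor of ENL, by mouth at 100 mg/kg daily from E10.5 to E14.5. The titles of the first 2 libraries say that they had no treatment. All embryos carried the Wt1 GFPCre knock-in, which inactivates 1 Wt1 allele and drives Cre in cells that express Wt1 and in their progeny, in the nephron and part of the stroma.

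The 10 members are core subunits of the respiratory chain and of ATP synthase, which they build together with subunits that are encoded in the nucleus. Both strands of the circular mitochondrial genome are transcribed as long precursors, which are cut mostly at the transfer RNAs. Most of the messengers are polyadenylated, so that an assay which captures poly(A) tails reads them. In the kidney the proximal tubule is known for its dense mitochondria, while progenitors of the nephron rely more on glycolysis.

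The assay reads the end of each messenger, and the last 30 bases of 5 of the genes are shown because ratios are set beside gene length further on. mt-Nd4l is not a messenger of its own, as it is carried on one messenger with mt-Nd4. The sequences are printed from GENCODE M21 on build GRCm38, plus strand of the mitochondrial chromosome, with the stop codon, or the single T that polyadenylation completes to a stop codon, in capitals.
mt-Nd3 (chrM:9459-9806, 348 bases): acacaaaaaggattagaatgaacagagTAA
mt-Nd4l (chrM:9877-10173, 297 bases): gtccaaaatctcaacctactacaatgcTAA
mt-Co1 (chrM:5328-6872, 1545 bases): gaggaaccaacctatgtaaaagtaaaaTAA
mt-Nd5 (chrM:11742-13565, 1824 bases): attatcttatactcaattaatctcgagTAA
mt-Cytb (chrM:14145-15288, 1144 bases): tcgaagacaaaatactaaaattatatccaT
Each of the 10 genes is a single exon. Of the 13 genes, 3 (mt-Co3, mt-Nd4 and mt-Cytb) end in an incomplete stop codon. mt-Atp6 shares 43 bases with mt-Atp8 and 1 base with mt-Co3, and mt-Nd4 shares 7 bases with mt-Nd4l, so reads in these overlaps cannot be given to 1 gene. mt-Nd5 overlaps mt-Nd6 by 14 bases on the opposite strand. The genome also holds 17 nuclear copies that match one of the genes at 90% identity or more over at least 90 bases, and none of them is a row of the count tables.

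Each group was 1 library of pooled embryos, with no map from cells to embryos, so no test between groups was possible. Values are UMIs summed over cells and scaled to the total UMIs of all genes (CPM), and the intervals in parentheses (95%) cover no more than the error of counting. Cells were barcodes with 1000 to 6000 genes whose mitochondrial share did not exceed 10%. There were 5233 in the Enl-WT library, 4144 in the Enl-T1 library and 2754 in the Enl-T1 TDI-11055 library. That limit acts on the very UMIs reported here, and it removed 6.0%, 6.48% and 5.81% of the barcodes with 1000 to 6000 genes. The members made up 98.8% to 99.2% of the mitochondrial UMIs. The libraries differed in depth, with medians of 5090, 9391 and 16931.5 UMIs per kept cell, and each pair of libraries shared 10 to 14 barcodes. Cells were clustered without the mitochondrial genes, and of the 10 leading genes of each cluster 4 or 5 were fixed markers of the lineage in the nephron, 3 to 5 in the stroma and 0 to 3 in the ureteric epithelium. The main endothelial cluster had 6, and a small second one of 43 cells had 0.

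The Enl-T1 TDI-11055 library stood apart before any cell type was considered, because it held many kept droplets that were almost free of mitochondrial UMIs. A mitochondrial share under 1% was found in 46 of 5233 kept droplets of the Enl-WT library (0.879%, 0.644% to 1.17%) and in 120 of 4144 of the Enl-T1 library (2.90%, 2.41% to 3.45%). In the Enl-T1 TDI-11055 library 739 of 2754 kept droplets were of this kind (26.8%, 25.2% to 28.5%). They held 10.9% of the kept UMIs of that library, against 0.641% and 1.39% in the others. Levels and ratios of the members are therefore given with these droplets, and in the main cases also without them. Ratios to nuclear subunits and counts of gene lists are given with them only.

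**Figure D1:**
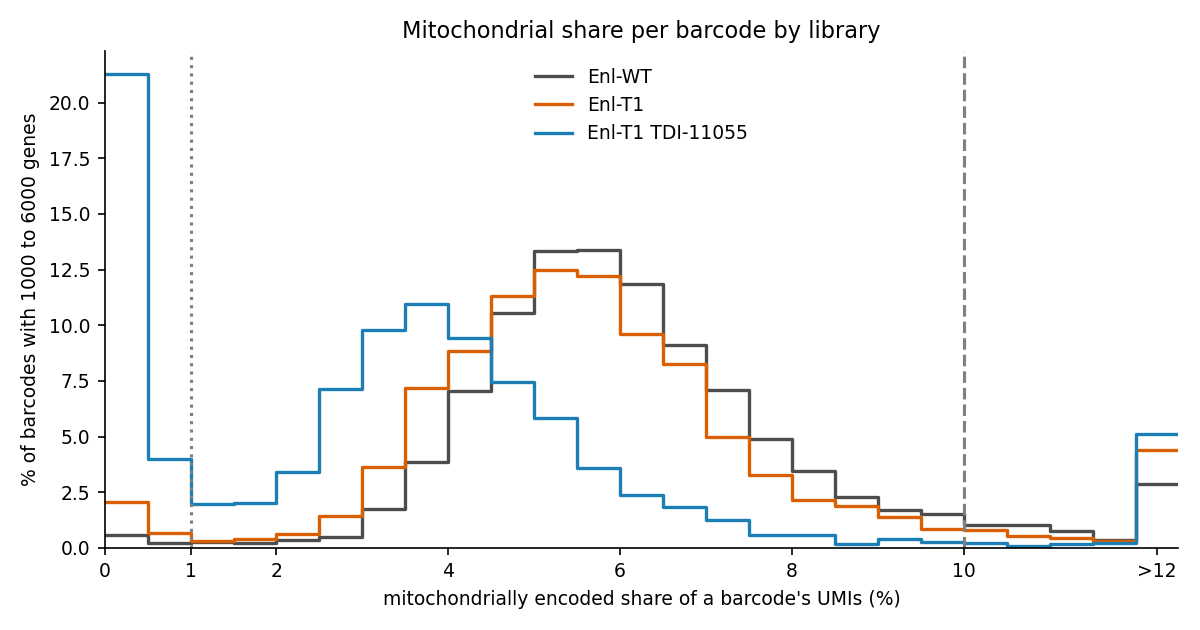
Distribution of the mitochondrially encoded share of UMIs (x axis, percent) over barcodes with 1000 to 6000 genes (y axis, percent of barcodes), 1 line per library, with the limits of 1% (dotted) and 10% (dashed). The median was 5.92% for Enl-WT, 5.55% for Enl-T1 and 3.53% for the TDI-11055 library, and only the last line has a tall peak under 1%.

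In the Enl-T1 library the 10 members together took a slightly smaller part of the UMIs than in the Enl-WT library, and this direction depended on how the libraries were scaled. Over all kept cells they stood at 58669 CPM for Enl-WT, 53734 CPM for Enl-T1 and 36774 CPM for the TDI-11055 library. The Enl-T1 level was 0.916 times (0.914 to 0.918) the Enl-WT level, but 0.20 higher on the log2 scale with median-of-ratios scaling, and 0.057 higher when mitochondrial, ribosomal protein and haemoglobin genes were left out of the total. In CPM the median gene was itself lower by 0.33 in log2 in Enl-T1, so the members together lay above the median gene. Ribosomal protein genes took 24.8% of the UMIs in Enl-T1 and 14.8% in Enl-WT, and the part of this shift in the members' CPM was not tested.

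In CPM the small Enl-T1 difference was seen in all 4 lineages. In nephron cells the 10 members stood at 60068 CPM in Enl-WT and 54284 CPM in Enl-T1, a ratio of 0.904 (0.901 to 0.907), which turned to 0.26 above Enl-WT in log2 with median-of-ratios scaling. In the stroma the levels were 56435 and 53745 CPM (ratio 0.952, 0.948 to 0.957). In the ureteric epithelium they were 58912 and 53699 CPM (0.912, 0.909 to 0.914), and in the endothelium 54131 and 51294 CPM (0.948, 0.941 to 0.954). The ureteric epithelium thus showed a ratio between those of the nephron and the stroma.

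**Figure D2:**
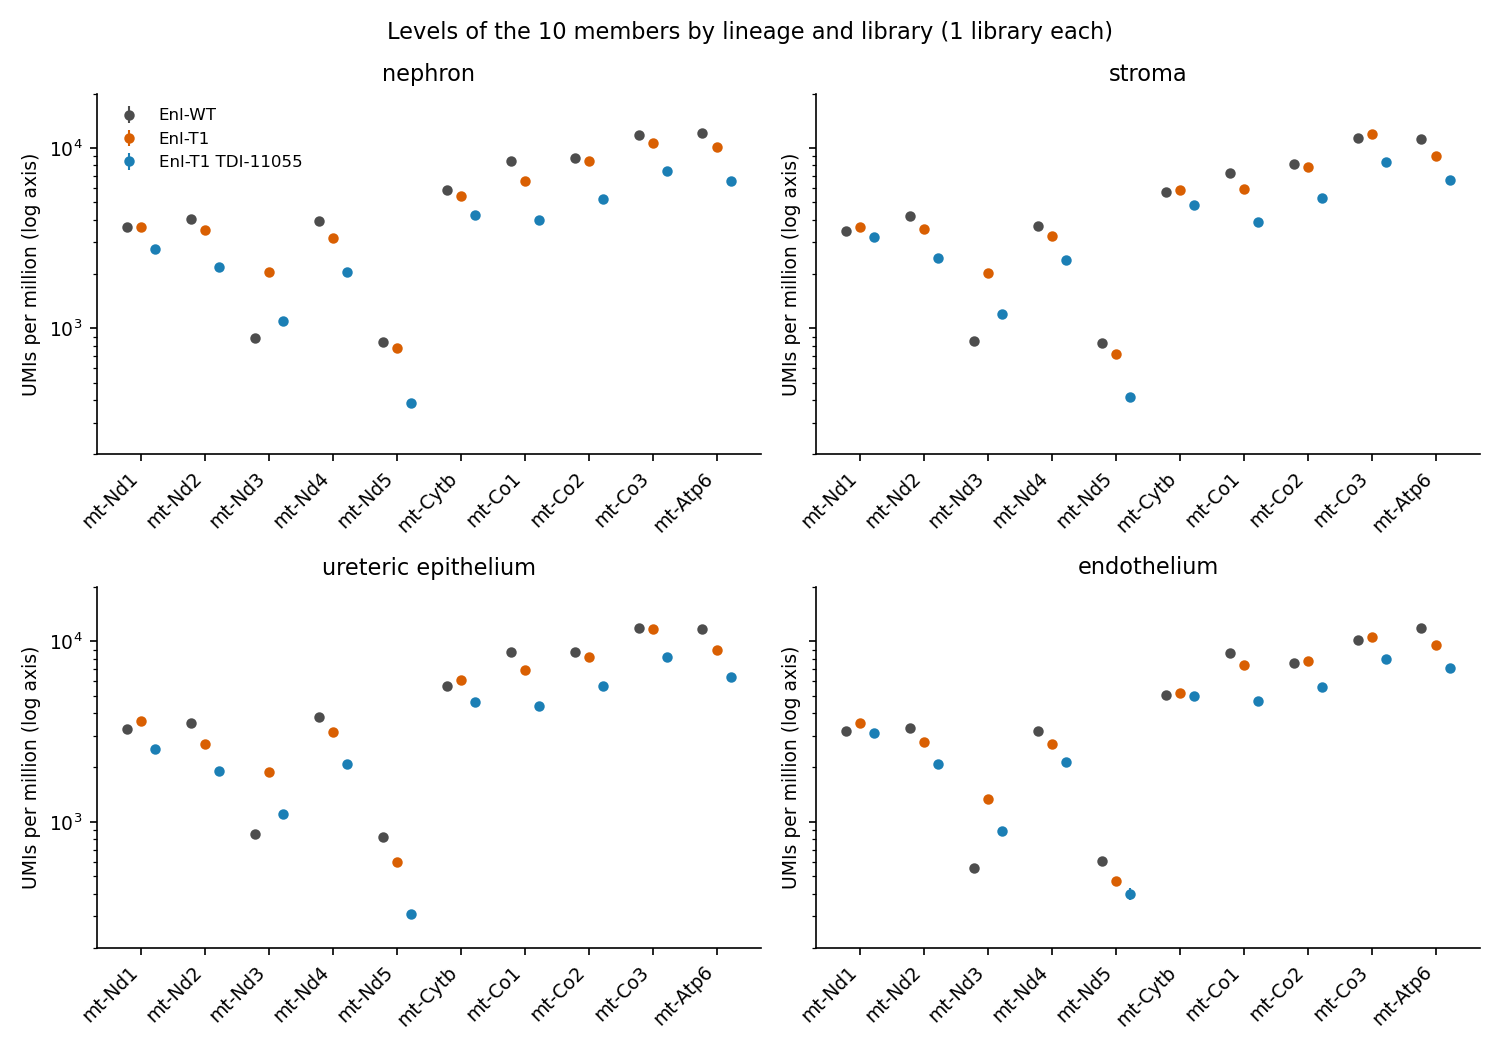
Levels of the 10 members (y axis, CPM on a log axis) in 4 lineages, 1 point per library, with 95% counting intervals that are mostly smaller than the points. mt-Nd3 is the member whose Enl-T1 point lies well above its Enl-WT point, in every lineage, and the Enl-T1 TDI-11055 points lie below the Enl-T1 points throughout.

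The members of complex I had unlike ratios between Enl-WT and Enl-T1. mt-Nd3, one of the short subunits near the quinone site of complex I, was counted at 881 CPM in Enl-WT nephron cells, 2043 CPM in Enl-T1 and 1104 CPM in the TDI-11055 library. Its Enl-T1 level was 2.32 times (2.27 to 2.37) the Enl-WT level, and over 11 alternative settings the ratio ran from 2.22 to 3.08. mt-Nd3 was the 1 member of 10 that was at least 1.5-fold higher in Enl-T1 nephron cells, where 5.61% of the 10429 genes tested were, and none was 1.5-fold lower, against 38.2% of genes. Over all kept cells the count was likewise 1 higher (mt-Nd3, background 5.56%) and 0 lower (background 29.3%). Its ratio was 2.38 in the stroma, 2.19 in the ureteric epithelium and 2.40 in the endothelium. Among the 14 classes with at least 50 cells in both libraries it lay between 1.95 and 2.85. The classes share the same libraries, and no share of all genes was computed over them.

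The other complex I members lay near or under the Enl-WT level in CPM, whereas with median-of-ratios scaling all 10 members lay above it, by 0.045 (mt-Co1) to 1.62 (mt-Nd3) in log2 in nephron cells. mt-Nd1, a core subunit of the membrane arm, stood at 3622 CPM in Enl-WT nephron cells and 3627 CPM in Enl-T1 (ratio 1.00, 0.989 to 1.01). mt-Nd2 stood at 4058 and 3510 CPM (0.865) and mt-Nd4 at 3926 and 3172 CPM (0.808), both proton-pumping subunits of the membrane arm. mt-Nd5, the pumping subunit at its far end, stood at 837 and 773 CPM (0.923). Over the 14 classes the ratio in CPM ran from 0.969 to 1.26 for mt-Nd1 and from 0.727 to 0.986 for mt-Nd4. The median gene was itself lower in Enl-T1 in CPM.

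In complex III, mt-Cytb, the subunit that carries the b haems, stood at 5814 CPM in Enl-WT and 5425 CPM in Enl-T1 nephron cells (0.933, 0.924 to 0.942). Its ratio was above 1 in the ureteric epithelium, at 1.08 (1.07 to 1.09). In complex IV, mt-Co1, the catalytic subunit that reduces oxygen, stood at 8433 and 6552 CPM in nephron cells (0.777, 0.770 to 0.784). Over the 14 classes the mt-Co1 ratio ran from 0.728 to 0.924 in CPM, in which the median gene was also lower. With median-of-ratios scaling its nephron ratio reached 1.03. mt-Co2, which accepts electrons from cytochrome c, stood at 8747 and 8436 CPM (0.964), and mt-Co3, a structural core subunit, at 11742 and 10688 CPM (0.910). In complex V, mt-Atp6, part of the proton channel, stood at 12008 and 10059 CPM (0.838, 0.832 to 0.844).

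The 3 mitochondrially encoded genes outside the set had low counts. mt-Nd4l, a short complex I subunit, stood at 200 CPM in Enl-WT and 496 CPM in Enl-T1 nephron cells (2.48, 2.38 to 2.59). mt-Atp8, read from the same messenger as mt-Atp6, stood at 112 and 183 CPM (1.64, 1.54 to 1.75). mt-Nd6, the one gene on the other strand, stood at 155 and 75.5 CPM (0.487, 0.452 to 0.524). Over the 14 classes its ratio ran from 0.315 to 0.643. How well poly(A) capture reads this gene was not tested.

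The make-up of the members' UMIs does not use the total of other genes, and it separated the libraries. In nephron cells mt-Nd3 took 1.47% (1.44% to 1.49%) of the members' UMIs for Enl-WT, 3.76% (3.72% to 3.81%) for Enl-T1 and 3.08% (3.03% to 3.12%) for the TDI-11055 library. Over the classes its share ran from 1.03% to 1.56% in Enl-WT (16 classes), from 2.60% to 3.96% in Enl-T1 (14 classes) and from 2.28% to 3.15% in Enl-T1 TDI-11055 (10 classes). The Enl-WT range of mt-Nd3 did not overlap the other ranges, while for every other member the Enl-WT and Enl-T1 ranges overlapped. The Enl-WT and Enl-T1 TDI-11055 ranges were also apart for mt-Cytb and mt-Atp6. The classes of a library are not replicates, and the ranges rest on unlike sets of 16, 14 and 10 classes. How often ranges lie apart over all genes was not computed. The same shares were found in barcodes that no cell filter had kept: in barcodes with fewer than 1000 genes mt-Nd3 took 1.45% for Enl-WT, 3.55% for Enl-T1 and 3.0% for the TDI-11055 library, and in barcodes over the mitochondrial limit 1.52%, 3.60% and 3.10%. The share of mt-Nd3 thus went with the library in these kinds of barcode and in every lineage. A library effect and an effect of genotype cannot be told apart with 1 library per group.

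**Figure D3:**
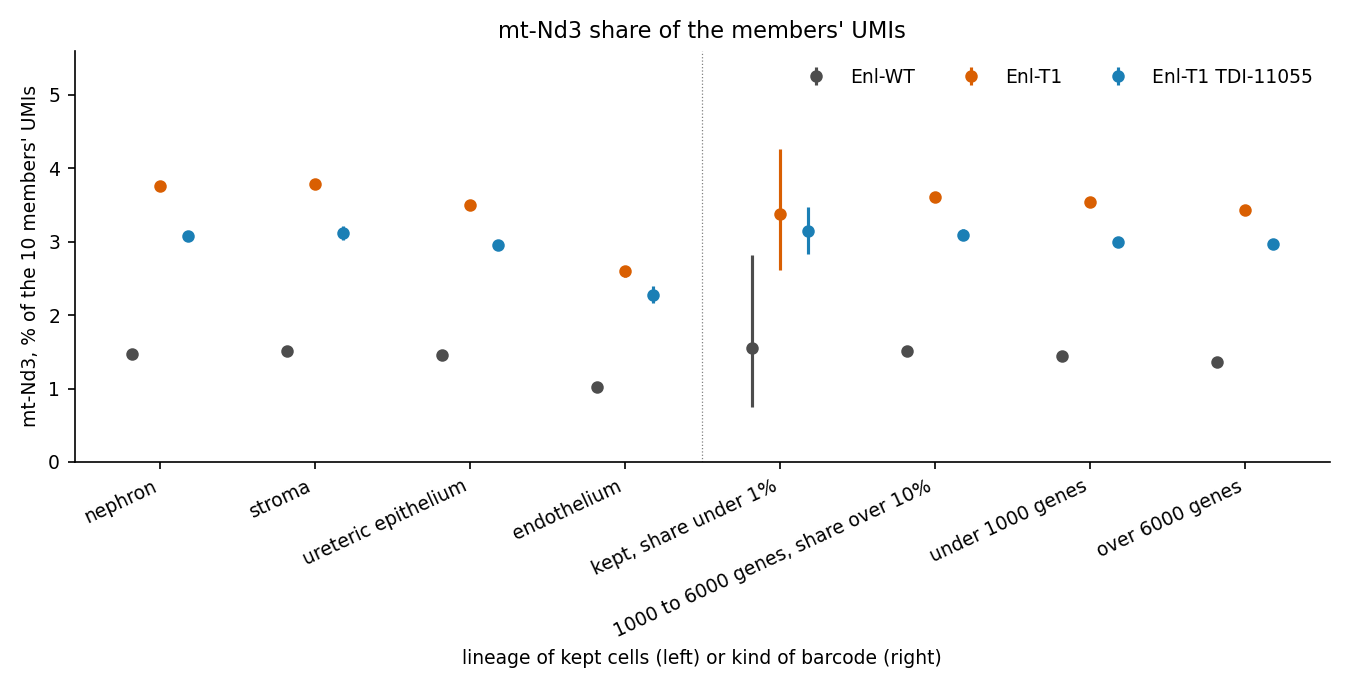
Share of mt-Nd3 among the UMIs of the 10 members (y axis, percent, with exact 95% intervals) in 4 lineages of kept cells and in 4 kinds of barcode defined by gene count and mitochondrial share (x axis), 1 point per library. The Enl-WT points lie near 1.4% to 1.6% except in the endothelium (1.03%), and in every column they are below the points of the other libraries.

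Complex IV together held 48.1% of the members' UMIs in Enl-WT nephron cells, 47.3% in Enl-T1 and 46.3% in the TDI-11055 library. Complex I held 22.2%, 24.2% and 23.7%. The share of mt-Co1 was 14%, 12.1% and 11.1%, and that of mt-Cytb was 9.68%, 9.99% and 11.9%. The share of mt-Co1 was thus lowest, and that of mt-Cytb highest, in the Enl-T1 TDI-11055 library.

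Gene length, counted over exons, moved with the Enl-T1 ratio. Nuclear genes with exons of up to 500 bases in all had a median log2 ratio of 1.15 in nephron cells (31 genes), those of 500 to 1000 bases 0.27 (209 genes), those of 1000 to 2000 bases 0.04 (1039 genes) and those over 4000 bases -0.58 (6237 genes). mt-Nd3 (348 bases), with a log2 ratio of 1.21, lay close to the median of the shortest nuclear genes. mt-Nd4l (297 bases) had a log2 ratio of 1.31, while mt-Nd4, on the same messenger, lay below its Enl-WT level in CPM. The lengths of mt-Nd4l and mt-Atp8 are thus not lengths of messengers, as mt-Atp8 is carried with mt-Atp6. Spearman's rho between length and log2 ratio was -0.48 over the 10 members and -0.40 over 10414 other genes. It was -0.68 over the 12 mitochondrial genes of the mt-Nd3 strand, with mt-Nd4l and mt-Atp8 at their gene lengths. These values describe genes that share the same libraries. For Enl-T1 TDI-11055 against Enl-T1 rho was -0.08 over the members, 0.38 over the 12 genes and -0.45 over the 10414 other genes. The part of length in the ratio of mt-Nd3 was not tested.

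**Figure D4:**
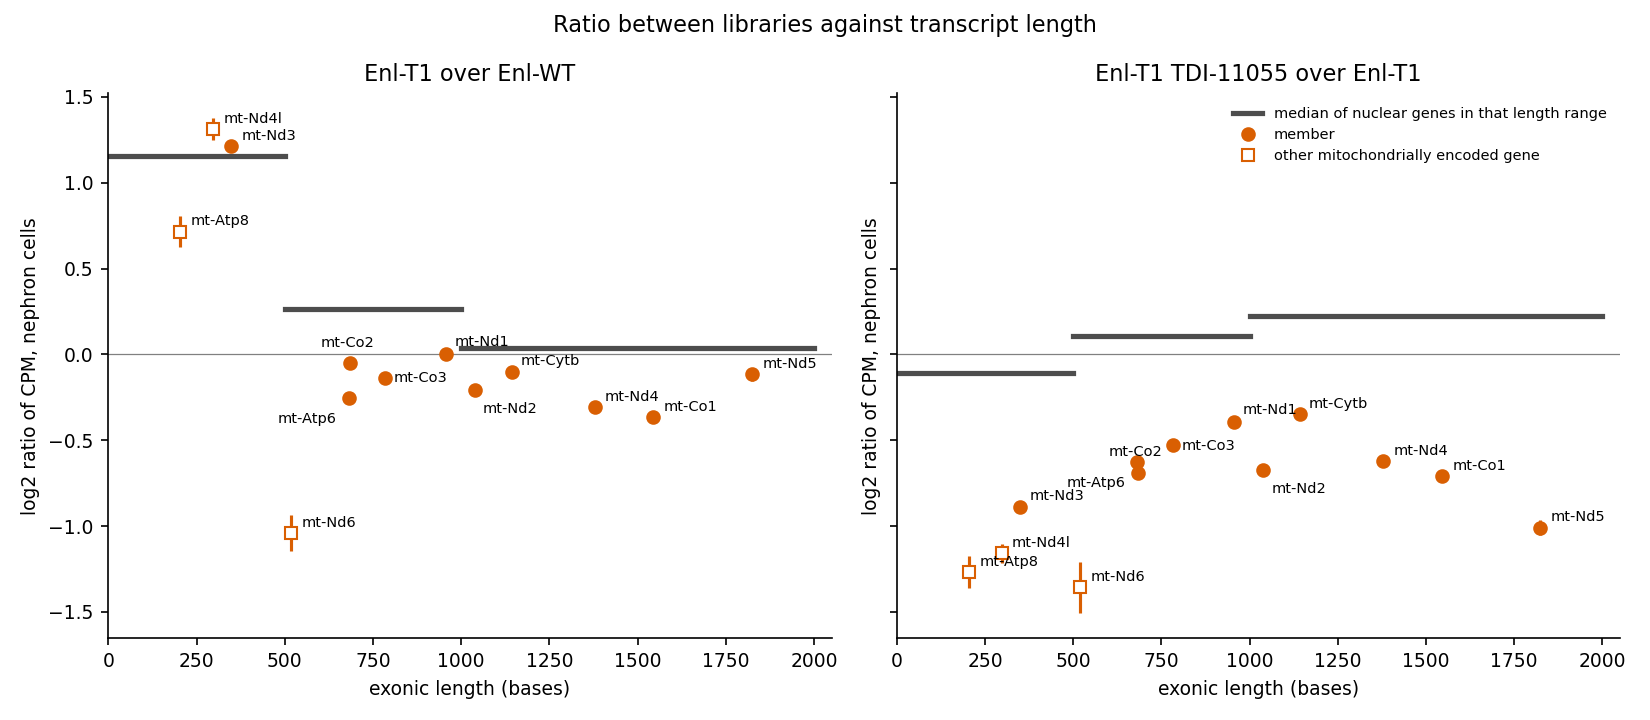
Log2 ratio of CPM in nephron cells (y axis) against exonic length in bases (x axis) for the 10 members (filled circles) and the 3 other mitochondrially encoded genes (open squares), with 95% counting intervals, and the median of nuclear genes per length range (bars), for Enl-T1 over Enl-WT (left) and Enl-T1 TDI-11055 over Enl-T1 (right). On the left mt-Nd3 (1.21) and mt-Nd4l (1.31) lie near the bar of the shortest nuclear genes (1.15), and on the right all 13 genes lie below 0. mt-Nd4l and mt-Atp8 are placed at gene length, although they share messengers with mt-Nd4 and mt-Atp6.

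In the Enl-T1 TDI-11055 library all 10 members were lower than in Enl-T1, in all 4 lineages, by more with the droplets under 1% than without them. Summed over all kept cells the ratio was 0.684 (0.683 to 0.686) with these droplets and 0.753 (0.751 to 0.754) without them. In nephron cells it was 0.662 with and 0.792 without, in the stroma 0.719 and 0.751, in the ureteric epithelium 0.691 and 0.709, and in the endothelium 0.760 and 0.776. The nephron ratio therefore moved most, and without these droplets the ureteric epithelium had the lowest ratio of the 4 lineages. Leaving droplets out by their low share raises the members' level by selection. The median gene differed by -0.02 in log2 over all kept cells, so these ratios are close to those relative to the median gene.

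By member, 7 of 10 were at least 1.5-fold lower in Enl-T1 TDI-11055 nephron cells (mt-Nd2, mt-Nd3, mt-Nd4, mt-Nd5, mt-Co1, mt-Co2 and mt-Atp6), where 7.37% of genes were, and none was 1.5-fold higher, against 7.42%. Over all kept cells 4 were 1.5-fold lower (mt-Nd2, mt-Nd3, mt-Nd5 and mt-Co1; background 11%) and 0 higher (background 6.14%). Without the droplets under 1% only mt-Nd3 and mt-Nd5 remained past 1.5-fold in nephron cells. The share of all genes past 1.5-fold was not computed without these droplets.

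mt-Nd5 had the lowest ratio of the members in nephron cells, with 773 CPM in Enl-T1 and 384 CPM in the TDI-11055 library (0.497, 0.482 to 0.512, and 0.595 without the droplets under 1%). mt-Nd3 stood at 2043 and 1104 CPM (0.541, and 0.647 without). The level of mt-Nd3 in Enl-T1 TDI-11055 thus lay between those of Enl-T1 and Enl-WT. mt-Cytb was nearest to its Enl-T1 level, with 5425 and 4266 CPM (0.786, 0.779 to 0.794, and 0.943 without), followed by mt-Nd1 with 3627 and 2756 CPM (0.760, and 0.910 without).

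The remaining members lay between these. mt-Nd2 stood at 3510 CPM in Enl-T1 and 2200 CPM in the TDI-11055 library nephron cells (0.627, and 0.751 without the droplets under 1%), and mt-Nd4 at 3172 and 2061 CPM (0.650 and 0.779). mt-Co1 stood at 6552 and 4004 CPM (0.611 and 0.732), mt-Co2 at 8436 and 5228 CPM (0.620 and 0.741) and mt-Co3 at 10688 and 7401 CPM (0.692 and 0.828). mt-Atp6 stood at 10059 and 6509 CPM (0.647 and 0.774). Each was below its Enl-T1 level with and without the droplets under 1%.

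In the endothelium, where 12 of 116 droplets were under 1%, mt-Co1 was the member with the lowest ratio, at 7376 CPM in Enl-T1 and 4651 CPM in the TDI-11055 library (0.631, 0.615 to 0.647). mt-Cytb there was at 5154 and 4980 CPM (0.966, 0.941 to 0.991), and mt-Nd1 at 3517 and 3112 CPM (0.885). Without the droplets under 1% the interval of mt-Cytb reached 1 (0.986, 0.960 to 1.01).

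In the mutant libraries droplets nearly free of mitochondrial UMIs were most frequent among nephron cells. In the Enl-T1 TDI-11055 library they were 599 of 1340 nephron cells (44.7%, 42.0% to 47.4%), 39 of 271 stroma cells (14.4%, 10.4% to 19.1%), 85 of 1022 ureteric epithelium cells (8.32%, 6.70% to 10.2%) and 12 of 116 endothelium cells (10.3%, 5.46% to 17.4%). In Enl-T1 they were 96 of 1297 nephron cells (7.40%, 6.04% to 8.96%) and in Enl-WT 25 of 2215 (1.13%, 0.732% to 1.66%), beside 20 of 1744 ureteric epithelium cells of Enl-WT (1.15%, 0.702% to 1.77%). None was found among 395 endothelial cells of Enl-WT (exact upper limit 0.930%) or among 257 of Enl-T1 (exact upper limit 1.43%).

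Within the nephron of the Enl-T1 TDI-11055 library these droplets were unevenly spread, although mitochondrial genes had been left out of the clustering. They were 2 of 184 cells of the progenitor cluster led by Rspo3 and Cited1, both expressed in self-renewing progenitors, but 110 of 162 (67.9%) of the cluster led by the mitosis genes Ube2c and Nusap1 and 68 of 195 (34.9%) of the cluster led by the replication genes Rrm2 and Ccne2. In the cluster led by Lhx1 and Osr2, genes of the early renal vesicle, they were 144 of 194 (74.2%), and in the cluster led by Sim1 and Cxcl14 96 of 160 (60.0%). They were 5 of 79 (6.33%) in the cluster led by Slc12a1, the salt transporter of the loop of Henle, and 32 of 75 (42.7%) among proximal tubule-like cells. In Enl-T1 the most affected of the same clusters, that led by Sim1 and Cxcl14, held 6 of 57. A small unnamed cluster led by haemoglobin genes was made mostly of such droplets in each library, at 69.0%, 81.6% and 93.2%.

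Depth moved with them. In Enl-T1 TDI-11055 nephron cells 86.4% of the droplets with fewer than 5000 UMIs, 77.2% of those with 5000 to 15000 and 2.88% of those with more than 15000 had a share under 1%. The same figures were 51.9%, 4.18% and 0.429% in Enl-T1. At 5000 to 15000 UMIs, a matched depth, the libraries thus still differed. The members' summed log2 ratio of the TDI-11055 library to Enl-T1 at that depth was -1.85 in nephron cells, of which 308 of 399 in the TDI-11055 library were under 1%, and -0.98 over all kept cells. Among the remaining droplets of that depth over all kept cells the median share was 5.50% in Enl-T1 and 4.53% in the TDI-11055 library.

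The droplets under 1% differed from the others in more than the members. In the Enl-T1 TDI-11055 library they had a median of 5114 UMIs against 19824, ribosomal protein genes took 31.8% of their UMIs against 24.5%, and the nuclear RNA Malat1 took 0.359% against 1.10%. Nuclear-encoded subunits of the respiratory chain took 3.83% against 2.89%, so as a share of UMIs the nuclear partners of the members were not lower there. Their UMIs per droplet, at this lower depth, were not compared. Haemoglobin took 1.20% against 0.172%, and the part of red-cell RNA was not tested. Ribosomal protein genes were higher and Malat1 lower in these droplets in all 3 libraries. In nephron cells of the Enl-T1 TDI-11055 library the droplets under 1% still carried nephron genes, mostly at lower levels than the others. Pax2 stood at 143 CPM against 252 CPM, Wt1 at 22 against 89.1 CPM and Eya1 at 27.2 against 119 CPM. Six2 (81.6 against 118 CPM), Cited1 (93.6 against 146), Crym (79.8 against 125) and Meox1 (15.2 against 41.5) were lower too. Of these genes Lhx1 alone was higher, at 114 against 93.4 CPM. The endothelial gene Kdr (0.785 against 0.659 CPM) and the leukocyte gene Ptprc (2.88 against 3.82 CPM) were near 0 in both.

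The members still had a measurable level in these droplets. The limit of 1% acts on the members' own UMIs, so a low level is fixed by the selection, and the values below are values only. In droplets under 1% they stood together at 3152 CPM for Enl-WT, 3187 CPM for Enl-T1 and 2478 CPM for the TDI-11055 library, with 14.1, 16.3 and 15.9 UMIs per droplet. mt-Nd3 took 1.55% (0.744% to 2.82%, from 10 UMIs), 3.37% (2.62% to 4.27%) and 3.14% (2.83% to 3.47%) of these UMIs, near the shares of each library as a whole. The intervals of Enl-WT and Enl-T1 overlapped. The number of UMIs per droplet was alike in the 3 libraries although depth was not.

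Across cell classes the order of the members' levels was partly shared by the libraries. The cluster of ureteric epithelium led by Sprr2f, Fxyd4 and Apela had 0 fixed markers among its 10 leading genes. It had the highest summed level of the classes with at least 50 cells in each of the 3 libraries, at 73442 CPM for Enl-WT, 63951 CPM for Enl-T1 and 52306 CPM for the TDI-11055 library. The ureteric clusters led by Ret and Wnt11, genes of the branching tips, had the lowest level in Enl-WT, 49926 CPM, and in Enl-T1, 42047 CPM, and stood at 32289 CPM in Enl-T1 TDI-11055. The difference within the ureteric epithelium was thus of the same direction in all libraries.

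Proximal tubule-like cells came next in Enl-WT, at 71132 CPM (70741 to 71526), and podocyte-like cells were low, at 51076 CPM (50737 to 51418). Within the nephron of Enl-WT the level was 61767 CPM in distal tubule/loop of Henle-like cells, 60119 CPM in NP1-like cells, named from markers of self-renewing nephron progenitors, and 56573 CPM in NP2-like cells, named from markers of committed progenitors. The NP1-like level (59879 to 60359) and that of the ureteric cluster led by Cldn3 (60006 CPM, 59713 to 60301) did not differ beyond counting error. In Enl-T1, NP2-like cells (54335 CPM, 54072 to 54599), unnamed stroma (54325 CPM) and NP1-like cells (54007 CPM, 53837 to 54177) had overlapping intervals. In Enl-T1 TDI-11055 the intervals of NP1-like (37933 CPM), distal tubule/loop of Henle-like (37889 CPM) and Cldn3-led ureteric cells (37680 CPM) overlapped, and NP2-like cells stood at 30270 CPM. Without the droplets under 1% this order changed. Of the classes that kept at least 50 cells, the level was then 54082 CPM in the Sprr2f-led ureteric cluster, 47455 CPM in distal tubule/loop of Henle-like, 44166 CPM in NP1-like and 42142 CPM in NP2-like cells. The endothelium (39786 CPM) and the ureteric cells led by Cldn3 (38680 CPM) and by Ret (33321 CPM) then lay below these nephron classes. NP1-like cells held 349, 714 and 679 of the members' UMIs per cell in the 3 libraries, which differed in depth.

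**Figure D5:**
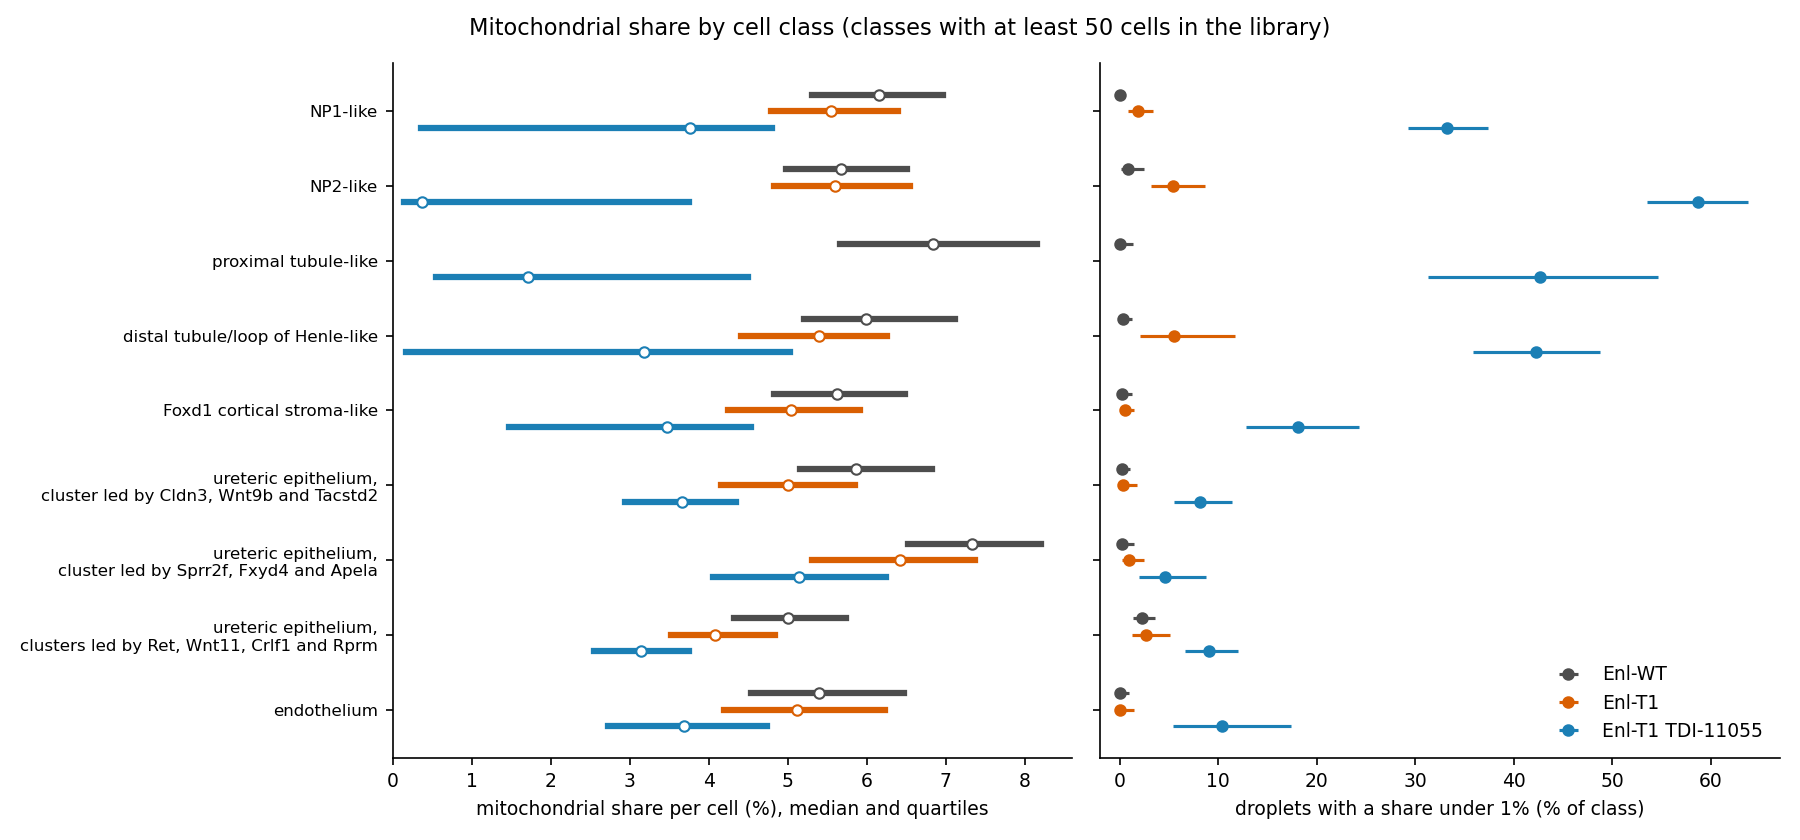
Mitochondrial share per cell (left, percent, median as circle and quartiles as bar) and percentage of droplets with a share under 1% (right, with exact 95% intervals) for cell classes (y axis), 1 colour per library, shown where the class had at least 50 cells. NP2-like cells of Enl-T1 TDI-11055 have a median of 0.375% with 58.7% of droplets under 1% (4.10% without these droplets), while the Sprr2f-led ureteric cluster has the highest median in each library.

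Per cell, the median mitochondrial share of nephron cells was 5.95% for Enl-WT, 5.59% for Enl-T1 and 2.58% for the TDI-11055 library, and 5.97%, 5.72% and 4.48% without the droplets under 1%. In the ureteric epithelium it was 5.75%, 5.21% and 3.53%, in the stroma 5.73%, 5.44% and 3.77%, and in the endothelium 5.39%, 5.11% and 3.69%. The medians followed the same order of libraries in the 4 lineages.

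The mix of members also differed between cell types. Of the classes with at least 50 cells, the endothelium had the lowest share of mt-Nd3 in each library (1.03%, 2.60% and 2.28%) and the lowest share of mt-Nd4 in each library (5.92%, 5.29% and 5.47%). mt-Co1 had its highest share in the endothelium in Enl-WT and Enl-T1 (15.8% and 14.4%). NP2-like cells had the lowest share of mt-Cytb in each library, at 9.26%, 9.87% and 11.6%. Over the 40 sums of a class in a library, the level of a member correlated with the sum of the other members at r of 0.624 (mt-Nd5) to 0.962 (mt-Co2), a description over points that share libraries and depth.

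The nuclear partners of the members did not show the same ratios. In nephron cells 9 of 37 tested nuclear subunits of complex I were at least 1.5-fold above their Enl-WT level in Enl-T1 and 1 was as far below (median log2 ratio 0.25), and 9 of 13 of complex IV were higher and 0 lower (median 0.83), beside a median of -0.41 over all genes, of which 5.61% were higher and 38.2% lower. Of complex III 3 of 9 were higher and 0 lower (median 0.49), and of complex V 6 of 17 were higher and 1 lower (median 0.22). The median of the 10 members was -0.13. Many of the nuclear subunits are short, and over 77 of them rho between length and ratio was -0.45.

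The nuclear subunits with the largest ratios were small accessory proteins. Atp5k stood at 110 CPM in Enl-WT and 420 CPM in Enl-T1 (3.82, 3.61 to 4.04), Ndufa3 at 64.5 and 196 CPM (3.03) and Atp5mpl at 173 and 522 CPM (3.02). Uqcr11 had a ratio of 2.31, Ndufc1 2.18, Uqcr10 1.89, Cox6c 2.19 and Cox6b2 2.5. In Enl-T1 TDI-11055 against Enl-T1 no tested nuclear subunit of complexes I, III, IV or V was past 1.5-fold in either direction. Their medians were 0.11, 0.16, -0.01 and 0.14, where the median of the members was -0.65, all with the droplets under 1%.

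Set against their nuclear partners, with the droplets under 1%, the members were lower in each step from Enl-WT to Enl-T1 to Enl-T1 TDI-11055. In nephron cells the UMIs of the mitochondrially encoded members of complex I were 1.92, 1.45 and 0.896 times those of the nuclear subunits. For complex III the ratio was 2.54, 1.65 and 1.26, for complex IV 5.39, 3.05 and 1.93, and for complex V 1.5, 1.04 and 0.603. These ratios do not depend on the total of all genes, but they set long and short transcripts against each other. The droplets under 1% were 599 of 1340 nephron cells of the Enl-T1 TDI-11055 library. In that library as a whole the members stood at 2478 CPM in such droplets and 40979 CPM in the others. The ratios were not computed without these droplets.

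Genes that serve the mitochondrial messengers gave smaller medians. Their counts stand beside 5.61% of all genes higher and 38.2% lower in the same comparison. Of the mitochondrial ribosome, 5 of 78 were 1.5-fold higher in Enl-T1 nephron cells, near that background, and 0 lower (median 0.07), among them Mrpl52 (106 CPM in Enl-WT and 299 CPM in Enl-T1) and Mrps21 (96.8 and 205 CPM). Of 18 tested genes of mitochondrial DNA transcription and copy number 2 were higher and 6 lower (median -0.05), the lower share near the background. Ppargc1a, a coactivator of mitochondrial biogenesis, stood at 79.6 and 34.9 CPM (0.439), and the transcription factor Nrf1 at 59.2 and 33.9 CPM (0.572). Of 19 genes of mitochondrial RNA processing and stability 1 was higher and 5 lower (median -0.10). Lrpprc and Slirp bind and stabilise mitochondrial messengers as a complex, and they differed in direction, with Lrpprc at 70.8 and 31.4 CPM (0.444) and Slirp at 66.9 and 174 CPM (2.60). In Enl-T1 TDI-11055 against Enl-T1 none of the 19 was past 1.5-fold, with Lrpprc at 0.943 and Slirp at 0.94.

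Genes that respond to tissue digestion and stress were also counted. Of 11 immediate early genes 0 were 1.5-fold higher in Enl-T1 nephron cells and 5 lower, the latter near the background of 38.2%, with Atf3 at 61.0 CPM in Enl-WT and 22.6 CPM in Enl-T1. Of 11 tested stress genes 2 were higher (background 5.61%) and 5 lower, again near the background. The mitochondrial chaperone Hspe1 stood at 265 and 746 CPM, and the serine synthesis enzyme Phgdh at 303 and 133 CPM. In Enl-T1 TDI-11055 against Enl-T1, where 7.42% of all genes were higher and 7.37% lower, 3 immediate early genes were higher and 3 lower, with Hspa1a at 5.17 CPM in Enl-T1 and 50.2 CPM in the TDI-11055 library (9.71-fold), and 4 stress genes were higher and 0 lower, with Phgdh at 133 and 259 CPM. Their part in the members' levels was not tested.

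Among 6780 genes with at least 20 CPM, those whose pattern over the 40 sums, centred per library, was most like the summed members were Ap2a2 (r of 0.734), Atp11a (0.711), Ehmt2 (0.706), Nr3c1 (0.696) and 4932438A13Rik (0.695). The pattern was most opposite for Itpa (-0.712), Rbm8a (-0.704), Lsm5 (-0.661), Nde1 (-0.657) and Emg1 (-0.643). The sums share libraries and depth, and these values are a description.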

How the data were processed

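The 3 deposited matrices held raw counts of UMIs per gene and barcode, which the authors had made with Cell Ranger 6.1.2 on mouse build mm10 from 10x 3′ libraries, with no later filter on cells. No column of other values was used. The members and the gene lists were chosen with earlier results of these data known.

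Barcodes with 1000 to 6000 genes and at most 10% mitochondrial UMIs were kept, as in the study's methods, and no doublets were removed. As an alternative, doublets were called with Scrublet in scanpy 1.11.5. Its threshold marked 2.14% of Enl-WT cells, but 0.314% of Enl-T1 and 0.0726% of Enl-T1 TDI-11055 cells, too few, so the cells with the highest scores were taken there (137 and 61). Libraries were integrated and clustered in Seurat 5.3.0 (R 4.3.3), with 264 genes left out of the clustering (sex-linked, haemoglobin, ribosomal protein and mitochondrial genes, and genes of the lists), on 30 principal components at a resolution of 0.5, and the nephron and stroma again on 20 at 0.8. Classes were named "-like" from fixed markers by a score that was chosen with the clusters in view. The NP1-like class includes 2 clusters led by replication and mitosis genes with 0 of its markers among their 10 leading genes. The NP2-like class includes a cluster led by C1qtnf12 with 1 of its markers, and 1 of another class, among the 10 leading genes. That cluster held 150 of 357 NP2-like cells in Enl-WT, 240 of 293 in Enl-T1 and 172 of 366 in Enl-T1 TDI-11055. Subdivisions of the ureteric epithelium are named by leading genes only. Classes under 50 cells in a library were not compared.

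UMIs were summed per class and library and scaled to CPM, with exact Poisson intervals for levels, the exact interval of the split of the counts for ratios, and exact Clopper-Pearson intervals for shares (SciPy 1.17.1). Total counts of the deposited barcodes were 37221435, 63336586 and 76619303 UMIs. Genes with at least 5 CPM on average were counted as tested, and 1.5-fold was the limit for a count. The code was tested on simulated data. Named genes were all members, the 3 other mitochondrially encoded genes, and the 5 genes most and least like the members. From each list up to 2 genes were named, at 20 CPM or more on average. These had the largest log2 ratio of Enl-T1 over Enl-WT in nephron cells, in either direction. Nuclear copies were sought with BLAST 2.17.0. Kidneys had been digested with enzymes and red cells lysed.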

Additional observations from a re-analysis of the deposited data

Results flagged for a closer look

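In 3 cases a member stood above its Enl-WT level in 1 lineage and below it in another, in CPM. The Enl-T1 over Enl-WT ratio of mt-Cytb was 1.08 in the ureteric epithelium and 0.933 in the nephron, a difference of 0.21 in log2. The ratio of mt-Co2 was 1.03 in the endothelium and 0.932 in the ureteric epithelium, a difference of 0.14, and that of mt-Co3 was 1.05 in the stroma and 0.910 in the nephron, a difference of 0.21. None of these differences was tested, since each arm was 1 library, and in CPM the sign depends on the scaling.

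Barcodes outside the cell filter also carried the members. In barcodes with 1000 to 6000 genes and a mitochondrial share over 10%, the 10 members stood at 147980 CPM in Enl-T1 and 240627 CPM in Enl-T1 TDI-11055, above the 125925 CPM of Enl-WT. These barcodes were selected by the members' own UMIs, so that high levels are fixed by the selection and the differences between libraries are values only. In barcodes with fewer than 1000 genes they stood at 256134 CPM in Enl-T1, above the 164017 CPM of Enl-WT, and at 90204 CPM in Enl-T1 TDI-11055, below it. Haemoglobin took 19.1% of the UMIs of these barcodes in Enl-T1, 31.1% in Enl-WT and 53.4% in Enl-T1 TDI-11055. Its part in these levels was not tested.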

How the results depend on the processing

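The log2 ratio of the summed members is given below for all kept cells and then for nephron cells. For Enl-T1 over Enl-WT it was -0.13 and -0.15. It was -0.12 and -0.11 without droplets under 1%, -0.086 and -0.16 with a mitochondrial limit of 5%, -0.076 and -0.074 at 5000 to 15000 UMIs, -0.20 and -0.19 in cells that had Y-linked UMIs but none of Xist, and -0.13 and -0.15 scaled to the total of non-mitochondrial genes. It turned to 0.057 and 0.11 with mitochondrial, ribosomal protein and haemoglobin genes out of the total, and to 0.20 and 0.26 with median-of-ratios scaling. The mean over cells gave -0.13 and -0.18, no mitochondrial limit gave -0.10 for all kept cells, and class levels weighted by Enl-WT shares gave -0.14 for the nephron.

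For the treated library over Enl-T1 it was -0.55 and -0.60, and below 0 in every alternative run. It was -0.41 and -0.34 without droplets under 1%, -0.52 and -0.52 with no mitochondrial limit, -0.34 and -0.41 with a limit of 5%, -0.98 and -1.85 at 5000 to 15000 UMIs, -0.41 and -0.41 in the Y-linked cells, -0.57 and -0.62 against non-mitochondrial genes, -0.57 and -0.66 with the reduced total, -0.53 and -0.59 with median-of-ratios scaling, -0.80 and -1.05 as a mean over cells, and -0.54 and -0.58 with Enl-WT weights.

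The count of members past 1.5-fold in nephron cells was 1 for Enl-T1 over Enl-WT and 2 at the lower of the other limits tried. For the treated library over Enl-T1 it was 7, but 2 without droplets under 1%, 2 with a limit of 5%, 2 in the Y-linked cells, and 1 past 2-fold. The share of all genes past the limit was not computed under these alternatives. The complex IV share of nephron cells was lower in Enl-T1 by 0.85 percentage points, a difference of -1.14 with a limit of 5%, -0.21 at matched depth, -1.34 in the Y-linked cells and -0.16 with Enl-WT weights. Leaving out Scrublet doublets moved none of these 7 results beyond its interval. The causes of the other movements were not tested. No paired analysis was possible because each group was 1 library. Intervals cover counting error only, and differences between embryos, preparations and libraries cannot be measured here.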
